A study of Mus musculus with 12 samples.

Results

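miR-674 is a mouse miRNA whose hairpin precursor yields a mature strand from each arm, and both strands were on the array. The older nomenclature of the array names the strand from the 5′ side mmu-miR-674 and the strand from the 3′ side mmu-miR-674*. These 2 members of the 696 mouse miRNAs on the array were selected by name, with their total signals and detection marks over days 1, 3, and 5 already known, so the changes between days are given as descriptions, without a test. The cells were bone marrow cells of male C57BL/6 mice aged 6 to 8 weeks, depleted of lymphocytes that carried CD45R (B220) or CD3. Culture lasted 1, 3, or 5 days with RANKL and M-CSF, each at 30 ng/ml, and all groups shared the strain, the depletion, and both cytokines. RNA from 4 independent cultures per day was hybridized to 12 single-color Agilent arrays, 1 culture per array. The cultures are mixed primary cells rather than a purified lineage, and no untreated culture was among the samples.

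A miRNA gene is transcribed as a long primary RNA, and the Drosha and Dicer nucleases cut a short duplex from its hairpin. An Argonaute protein keeps either strand of the duplex and discards the other, so the arms of a precursor can accumulate to different extents. The retained strand recognizes mRNAs mainly through its seed, the bases near its 5′ end. The asterisk in the older names was given to the strand thought to be the minor product. RANKL is the cytokine that drives myeloid precursors to become multinucleated, bone-resorbing osteoclasts, and M-CSF supports the survival and growth of those precursors.

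Both mature strands are shown because their seeds, their mutual pairing, and the bases that the array probes cover are described below. The sequences were taken from RefSeq (GRCm38.p6) and are written 5′ to 3′ with the seed, bases 2 to 8, in capitals.
mmu-miR-674: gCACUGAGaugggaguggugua
mmu-miR-674*: cACAGCUCccaucucagaacaa
The 5p strand lies at chr2:117185151-117185172 and the 3p strand at chr2:117185186-117185207, both on the plus strand. Each strand was 22 bases long, and the seeds of the strands differ. The seed of the 5p strand also occurs in mmu-miR-3473d and mmu-miR-1947-3p, neither of which was matched to an entry of the array. No other mature mouse miRNA of the RefSeq table has the seed of the 3p strand.
mmu-miR-3473d: cCACUGAGccacuuuccagcccuu
mmu-miR-1947-3p: gCACUGAGcuagcucucccucc

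The hairpin of Mir674, with both mature strands in capitals, shows how the arms face each other around the loop.
Mir674 hairpin: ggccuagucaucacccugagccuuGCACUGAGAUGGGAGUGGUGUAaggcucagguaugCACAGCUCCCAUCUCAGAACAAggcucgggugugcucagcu
It spans 100 bases at chr2:117185127-117185226 (GRCm38.p6, plus strand). The longest stretch in which the strands are perfectly complementary was 12 bases, set in capitals here.
mmu-miR-674, complementary stretch: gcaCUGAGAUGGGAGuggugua
mmu-miR-674*, complementary stretch: cacagCUCCCAUCUCAGaacaa
In the fold of the hairpin predicted with RNAfold, 17 bases of the 5p strand paired with the 3p strand. The predicted free energy of the whole hairpin was -60.90 kcal/mol. The nearest gene in the RefSeq table was Spred1, which encodes an inhibitor of Ras and MAP kinase signaling. Spred1 (chr2:117121071-117182279, plus strand) ended 2847 bp before Mir674. There were 0 other miRNA genes within 50 kb of Mir674, and the nearest one on chromosome 2, Mir1951, was 1546 kb away.

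The array measured the strands with probes of different length. In the lines below, the capitals mark the bases of the mature strand that the longest and the shortest probe of each strand cover.
mmu-miR-674, 14-base probe: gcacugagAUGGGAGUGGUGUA
mmu-miR-674, 11-base probe: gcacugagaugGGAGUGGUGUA
mmu-miR-674*, 19-base probe: cacAGCUCCCAUCUCAGAACAA
mmu-miR-674*, 17-base probe: cacagCUCCCAUCUCAGAACAA
The 5p strand had probes of 11, 12, 13, and 14 bases with 5 spots each, which all end at base 22 and cover none of the seed. The 3p strand had probes of 17, 18, and 19 bases with 7, 7, and 6 spots, which cover 3 to 5 of its seed bases. Over all probes of the array, the median length was 16 bases, and 30.0% had at most 14 bases. Signals of different probes are not on a common scale, so the level of one arm is not set against that of the other. What can be followed is the change of each arm, and the change over days of the difference between the arms within an array.

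The scanner software reports for each miRNA a total signal, which adds up its probes after background subtraction, and a mark for detection. Of the 696 miRNAs, 334 were detected on at least 1 array and 148 on all 12 arrays. Both arms of miR-674 were detected on all 12 arrays, and no spot of either was saturated. Detected miRNAs numbered 233 to 276 per array on day 1, 211 to 226 on day 3, and 186 to 269 on day 5, the lowest count being that of day 5 replicate 4. The total signal of all miRNAs was 1459229 to 1978030 on day 1, 970972 to 1133159 on day 3, and 1306753 to 1572020 on day 5. The arrays of days 1 and 5 lay on slide 1 (scan 1), in row 1 and row 2, and those of day 3 on slide 2 (scan 2), so that day 3 and slide cannot be told apart. Day 1 and day 5 are compared within 1 slide, where the day cannot be told apart from the row.

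mmu-miR-674*, the 3p arm, was up-regulated early and stayed high. On day 1 its total signal was 696.6, 549.0, 679.5, and 355.8 in replicates 1 to 4. It was 2543, 2172, 2335, and 2419 on day 3, and 4337, 3633, 4276, and 4561 on day 5. All arrays of days 3 and 5 lay above all arrays of day 1, and in these unnormalized signals all arrays of day 5 also lay above those of day 3. Each total signal was 10.8 to 16.5 times the error that the scanner software assigned to it.

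The total signals of the 334 detected miRNAs were quantile normalized, which gives each array the same distribution of values, and converted to log2. On this scale mmu-miR-674* had a mean of 8.82 ± 0.20 on day 1, 11.78 ± 0.06 on day 3, and 11.95 ± 0.15 on day 5 (SD, n = 4 each). The change from day 1 to day 3 was 2.97 (SE 0.11), a 7.82-fold rise, and from day 1 to day 5 it was 3.13 (SE 0.11), an 8.78-fold rise. The highest day 1 array was at 8.99, whereas the lowest array of the later days was at 11.74. Between day 3 and day 5 the difference was 0.17 (SE 0.11), and the ranges of 11.74 to 11.86 and 11.83 to 12.16 overlapped.

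mmu-miR-674, the 5p arm, was up-regulated over the same interval. Its total signal on day 1 was 210.2, 263.9, 237.0, and 179.2 in replicates 1 to 4. On day 3 it was 588.1, 508.7, 517.3, and 536.9, and on day 5 it was 806.0, 638.8, 751.2, and 515.2. Every array of the later days again lay above every array of day 1. Each total signal was 5.41 to 13.3 times its assigned error, lowest on day 1 replicate 1, and 6.82 times on day 5 replicate 4. The day 3 and day 5 signals overlapped, because replicate 4 of day 5 fell among the day 3 arrays.

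After quantile normalization mmu-miR-674 had a mean of 7.43 ± 0.27 on day 1, 9.58 ± 0.06 on day 3, and 9.44 ± 0.18 on day 5 (SD, n = 4 each). The change from day 1 to day 3 was 2.15 (SE 0.13), which is 4.44-fold, and that from day 1 to day 5 was 2.01 (SE 0.13), which is 4.04-fold. From day 3 to day 5 the difference was -0.14 (SE 0.13), with overlapping ranges of 9.53 to 9.66 and 9.18 to 9.55. In both arms day 1 was thus lowest, and the ranges of days 3 and 5 overlapped. The mean of day 5 was above that of day 3 for the 3p arm and below it for the 5p arm.

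**Figure D1:**
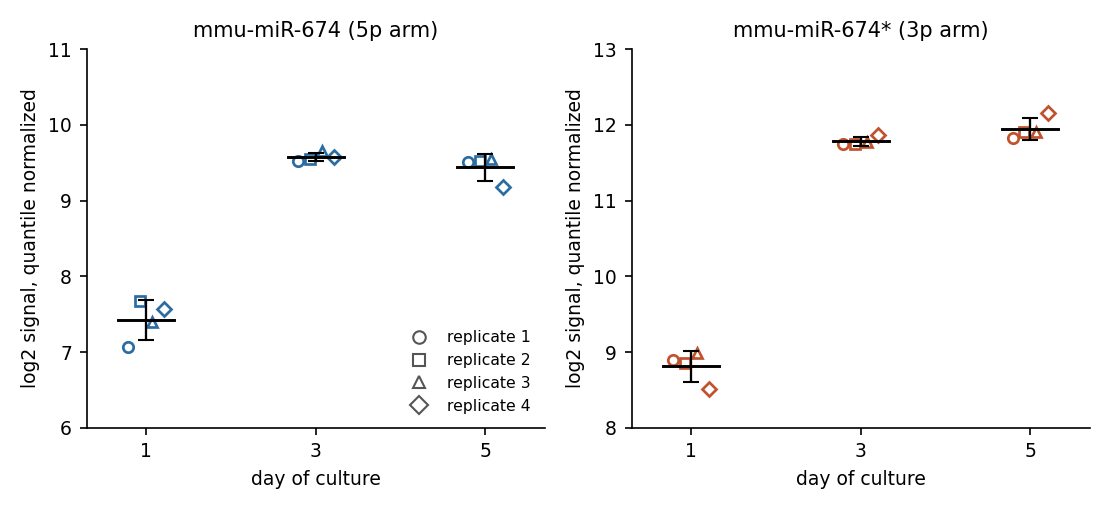
Log2 signal of both arms of miR-674 after quantile normalization, by day of culture, with 1 point per array, a black line at the mean, and bars of 1 SD (n = 4 per day). The panels have different y axes of equal span, since the level of one arm is not comparable with that of the other. In both panels all day 1 arrays lie below all arrays of days 3 and 5, which overlap.

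A separation of this kind was not rare among the miRNAs. All arrays of day 3 lay above all arrays of day 1 for 29.9% of the 334 miRNAs, and the corresponding share for day 5 over day 1 was 32.6%. For day 5 over day 3 it was 22.5%, where neither arm of miR-674 was counted. The day 5 minus day 1 change exceeded 1 on the log2 scale for 29.6% of the miRNAs, both arms included. The changes of both arms from day 1 stood high in the order. Days 1 and 5 shared 152 miRNAs with detection on all 8 arrays, whose median change was 0.36, and of these mmu-miR-674* had the third highest change and mmu-miR-674 had place 14. For days 1 and 3 there were 173 such miRNAs with a median change of 0.19, and the arms had places 3 and 6. For days 3 and 5 there were 165 with a median of 0.06, and the arms had places 67 and 108.

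The changes can also be read relative to the typical miRNA, which removes the scale of the array. Without any normalization the median detected miRNA changed by -0.65 from day 1 to day 3 and by 0.57 from day 3 to day 5. Relative to that median, mmu-miR-674* rose by 2.75 and mmu-miR-674 by 1.94 from day 1 to day 3. From day 1 to day 5 the relative rises were 2.95 and 1.63. From day 3 to day 5, mmu-miR-674* was 0.26 above and mmu-miR-674 0.25 below the median change. After scaling to the median of the miRNAs detected throughout, mmu-miR-674* was 0.41 (SE 0.19) higher on day 5 than on day 3, days that also differ in slide.

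In the order of the day 5 minus day 1 changes, the miRNAs just above mmu-miR-674* were mmu-miR-378 at 5.17 (SE 0.07), encoded within an intron of Ppargc1b, and mmu-miR-365 at 3.57 (SE 0.12). Just below it were mmu-miR-99a at 2.72 (SE 0.09), mmu-miR-199a-5p at 2.72 (SE 0.17), and mmu-miR-100 at 2.66 (SE 0.13). The 3p arm differed from mmu-miR-365 by 2.67 SE and from these lower neighbors by 2.04 to 2.85 SE. Here the SE combines those of both miRNAs as if they were independent, although they were measured on the same arrays. The neighbors of mmu-miR-674 were closer. mmu-miR-199a-3p (2.23), mmu-miR-5097 (2.17), and mmu-miR-23b (2.13) lay above it, and mmu-miR-151-5p (1.96), mmu-miR-125a-5p (1.92), and mmu-miR-29b (1.90) lay below it. None of these 6 was more than 0.86 SE away, so on this measure the place of the 5p arm is not resolved from theirs.

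The time course of each arm was compared with that of the other 147 miRNAs detected on all 12 arrays, after each miRNA's own mean was subtracted. The measure was the root mean square difference over the 12 arrays, in log2 units. The nearest to mmu-miR-674* was mmu-miR-365 at 0.25, followed by mmu-miR-185 (0.35), mmu-miR-99a (0.37), mmu-miR-326 (0.41), and mmu-miR-125b-5p (0.42). The nearest to mmu-miR-674 was mmu-miR-185 at 0.22, followed by mmu-miR-5097 (0.32), mmu-miR-23b (0.33), mmu-miR-125b-5p (0.33), and mmu-miR-99a (0.39). mmu-miR-185 rose by 2.51 from day 1 to day 3 and by 2.35 from day 1 to day 5, between the values of the arms. The arms themselves were 0.54 apart, which put mmu-miR-674 in place 7 for the 3p arm, and mmu-miR-674* in place 16 for the 5p arm. These are descriptions over arrays that share slides and normalization.

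The signals of miRNAs used as markers of cell types were followed over the same days. The myeloid markers miR-223, miR-142-3p, and miR-142-5p were detected on every array, and their summed quantile normalized signal was 98968 to 107910 on day 1, 77279 to 88317 on day 3, and 83340 to 96010 on day 5. The erythroid markers on the array, miR-451 and miR-144, fell in summed signal from 25488 to 38092 on day 1 to a range of 1285 to 2139 on day 3 and of 136 to 268 on day 5, with miR-144 undetected on days 3 and 5. The megakaryocytic marker miR-126-3p went from 578 to 893 on day 1 to 17.9 to 50.1 on day 3, where it was undetected. The lymphoid markers were miR-150, miR-181a, and miR-181b, with miR-150 undetected on the later days. Together they had 1840 to 2758 on day 1, 1933 to 2445 on day 3, and 1626 to 2230 on day 5. These sums hide members that went opposite ways from day 1 to day 5 on the log2 scale. miR-223 changed by -0.43 (SE 0.05), miR-142-3p by 0.57 (SE 0.21), and miR-142-5p by 0.10 (SE 0.15). miR-181a changed by -0.80 (SE 0.15), miR-181b by 0.45 (SE 0.13), and miR-150 by -3.08 (SE 1.37).

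The stromal markers also differed among themselves. The summed signal of miR-214, miR-199a-5p, miR-199a-3p, miR-145, and miR-143 was 437 to 666 on day 1, 591 to 669 on day 3, and 2600 to 3630 on day 5. On the quantile normalized log2 scale, miR-143 had means of 2.03, 5.11, and 8.14 on days 1, 3, and 5, and miR-214 had means of 2.47, 6.18, and 8.57. miR-143 was undetected on all arrays of days 1 and 3, and miR-214 on all arrays of day 3, so these means lie partly below detection. miR-145 was undetected on all arrays of days 3 and 5, and its day 5 minus day 1 change was -0.13 (SE 1.096). miR-199a-3p had means of 8.37, 8.46, and 10.60, and miR-199a-5p had means of 6.62, 7.24, and 9.34. In RNA of a mixed culture, fewer cells of a type and less of a miRNA per cell cannot be told apart. The part of the lower erythroid and the higher stromal signal in the rise of miR-674 was not tested.

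The arms of miR-674 did not rise to the same extent in the total signals. Within each array, the log2 value of mmu-miR-674* minus that of mmu-miR-674 was 1.84, 1.18, 1.58, and 0.95 on day 1 in replicates 1 to 4. On day 3 it was 2.22, 2.20, 2.13, and 2.29, and on day 5 it was 2.32, 2.38, 2.36, and 2.99. The ranges of the days did not overlap. The SD of the difference was 0.40 on day 1, 0.07 on day 3, and 0.32 on day 5. The mean difference grew by 0.82 (SE 0.23) from day 1 to day 3, by 1.12 (SE 0.23) from day 1 to day 5, and by 0.30 (SE 0.23) from day 3 to day 5.

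A factor that scales a whole array cancels in the difference of unnormalized values, which was 1.32 ± 0.36 on day 1, 2.14 ± 0.04 on day 3, and 2.65 ± 0.33 on day 5 (SD, n = 4 each). The increase from day 1 to day 5 was 1.32 on that scale. Such a ratio describes unequal change of the summed signals on this scale, and does not show that either arm stayed the same. Replicate 4 of day 5 had the highest difference of its day on all 3 scales used below, and without it the quantile normalized increase from day 1 to day 5 was 0.93 and that from day 3 to day 5 was 0.15.

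The direction of this shift depended on the values used. In the normalized log2 values that the authors deposited, mmu-miR-674* rose by 3.00 from day 1 to day 3 and by 3.20 to day 5, close to the changes above. mmu-miR-674 rose by 4.08 and 3.90 in the deposited values, against 2.15 and 2.01 after quantile normalization of the total signals. The arm difference in the deposited values was 4.20, 2.71, 3.05, and 2.85 on day 1, and had a mean of 3.20 ± 0.68 on day 1, 2.12 ± 0.04 on day 3, and 2.50 ± 0.36 on day 5 (SD, n = 4 each). It thus decreased by 1.08 from day 1 to day 3 and by 0.70 from day 1 to day 5. Day 3 lay wholly below day 1, and days 1 and 5 overlapped.

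**Figure D2:**
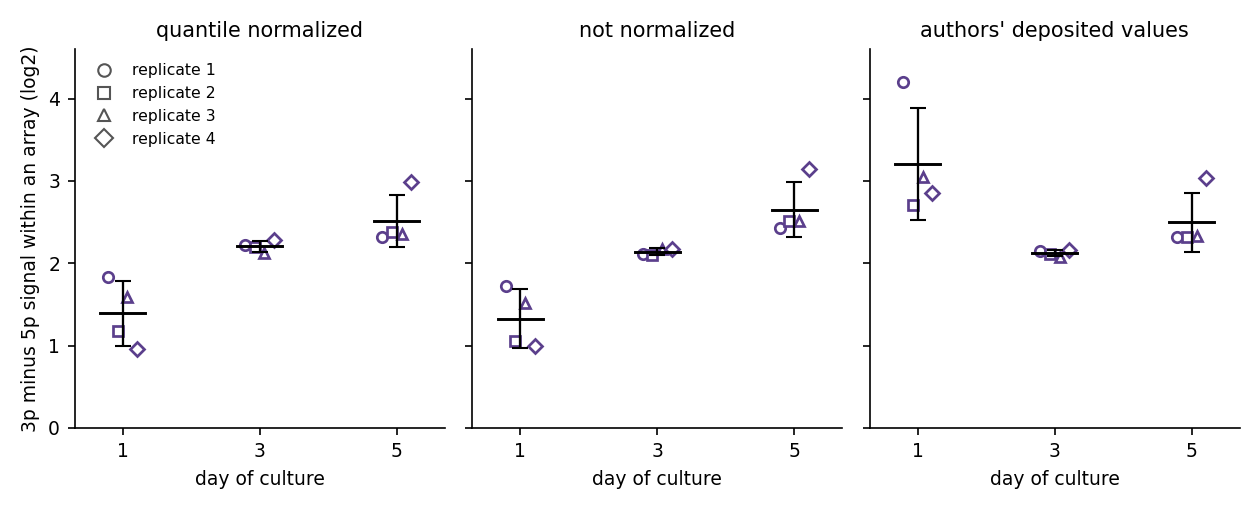
Log2 value of mmu-miR-674* minus that of mmu-miR-674 within each array, by day of culture, from quantile normalized signals, unnormalized signals, and the authors' deposited values, with 1 point per array, a line at the mean, and bars of 1 SD (n = 4 per day). The first and second panels show day 1 lowest, with means of 1.39 and 1.32, and the third panel shows day 1 highest, with a mean of 3.20.

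The discrepancy lay in the day 1 values of mmu-miR-674. There the quantile normalized value exceeded the deposited value by 1.67 to 2.59 on the 4 arrays. For the same arm on days 3 and 5 the excess was 0.07 to 0.20, and for mmu-miR-674* on all days it was 0.14 to 0.29. The deposited values kept the order of the total signals, with a Spearman correlation of 0.994 to 0.999 over the detected miRNAs of an array. By total signal, mmu-miR-674 held places 187 to 213 from the top on day 1, 114 to 119 on day 3, and 118 to 131 on day 5. mmu-miR-674* held places 139 to 154, 64 to 67, and 56 to 65.

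The other miRNAs in the same part of the order had similarly low deposited values. Around mmu-miR-674 on day 1, the 20 miRNAs next in the order (10 on each side) had a median deposited value of 3.62 to 6.22 per array, where mmu-miR-674 itself was at 4.48 to 5.91. On day 3 the corresponding medians were 9.35 to 9.51, and mmu-miR-674 was at 9.39 to 9.504. On day 1 replicate 2, mmu-miR-674 held place 187 of 276 detected miRNAs, so that many detected miRNAs were dimmer still. On day 5 replicate 4 it held place 131 of 186, and its deposited value of 8.98 there was close to the quantile normalized value of 9.18. Both scales gave a rise of each arm, and the size for the 5p arm and the sign of the arm shift were not shared between them.

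**Figure D3:**
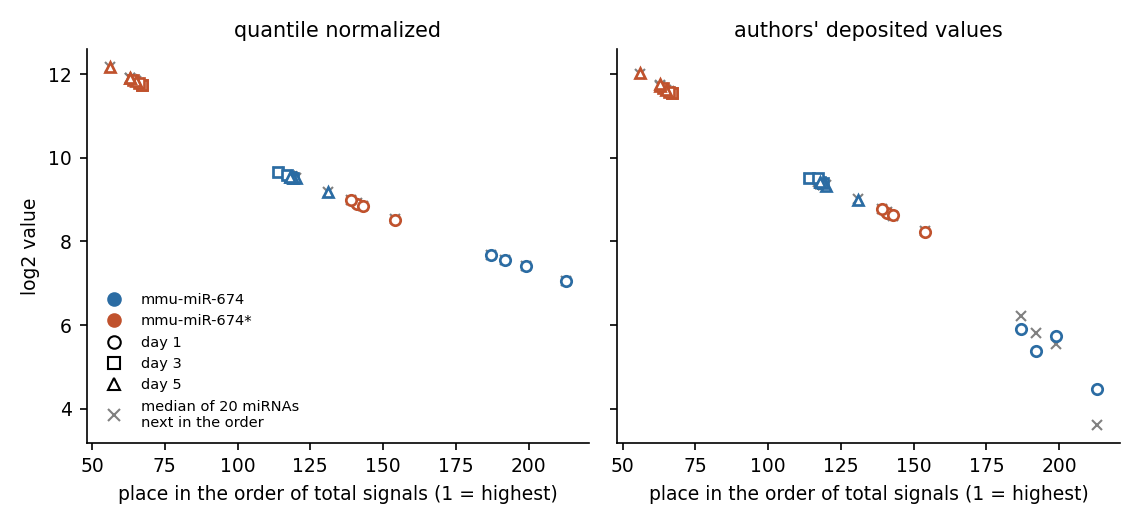
Log2 value of each arm on each array against its place among the detected miRNAs of that array in the order of total signals, for quantile normalized and for deposited values. Crosses give the median of the 20 miRNAs next in the order. In the deposited values the day 1 points of mmu-miR-674, at places 187 to 213, drop to between 4.48 and 5.91 together with the crosses.

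The probes gave a view of each arm beneath the total signal. The 11-base probe of mmu-miR-674 carried no signal, with 0 of 20 spots above background on each day. Its values on all 12 arrays were from -47.1, on day 5 replicate 4, to 6.95. The 14-base probe carried most of the signal, with 68.1% of the total on day 1, 70.8% on day 3, and 74.4% on day 5. These shares are means of the percentages on the single arrays of a day. The signal of the 14-base probe was 149.5, 165.8, 158.5, and 128.4 on day 1. It was 402.5, 361.7, 364.7, and 392.4 on day 3, and 560.3, 450.3, 535.7, and 445.3 on day 5. All 20 spots of this probe were above background on each day, and the ranges of the days did not overlap.

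The 12- and 13-base probes were close to background on day 1. The 12-base probe had 5 of 20 spots above background on day 1, 14 on day 3, and 15 on day 5, with mean signals of 37.6 ± 10.9, 66.2 ± 8.98, and 78.4 ± 28.8 (SD, n = 4 each). On day 5 replicate 4 it was at 36.7, below 2 of the day 1 arrays at 48.9 and 44.7, so that days 1 and 5 overlapped for this probe. The 13-base probe had 2, 20, and 15 of 20 spots above background, with means of 42.5 ± 8.28, 99.5 ± 11.3, and 116 ± 26.7. On day 5 both probes had 0 spots above background on replicate 4 and all 5 on each other array. On unnormalized values the day 5 minus day 1 change was 1.01, 1.43, and 1.72 for the 12-, 13-, and 14-base probe, with SDs on day 5 of 0.67, 0.36, and 0.17 on the log2 scale. The differences between these probes were not tested. After quantile normalization with the 12- or the 13-base probe in place of the sum, the change was 3.17 or 3.09. The arm shift was then -0.02 or 0.06, whereas it was 1.92 or 1.49 from the same probes without normalization.

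The 3 probes of mmu-miR-674* were much alike. From day 1 to day 5 their unnormalized changes were 2.91, 2.88, and 2.98 for 17, 18, and 19 bases. The 17-base probe had 22 of 28 spots above background on day 1, and every other combination of day and probe of this arm had all spots above background. The 18- and the 19-base probe each held 39.5% to 41.6% of the total signal on each day. The rise of the 3p arm was therefore of like size with each of its probes.

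**Figure D4:**
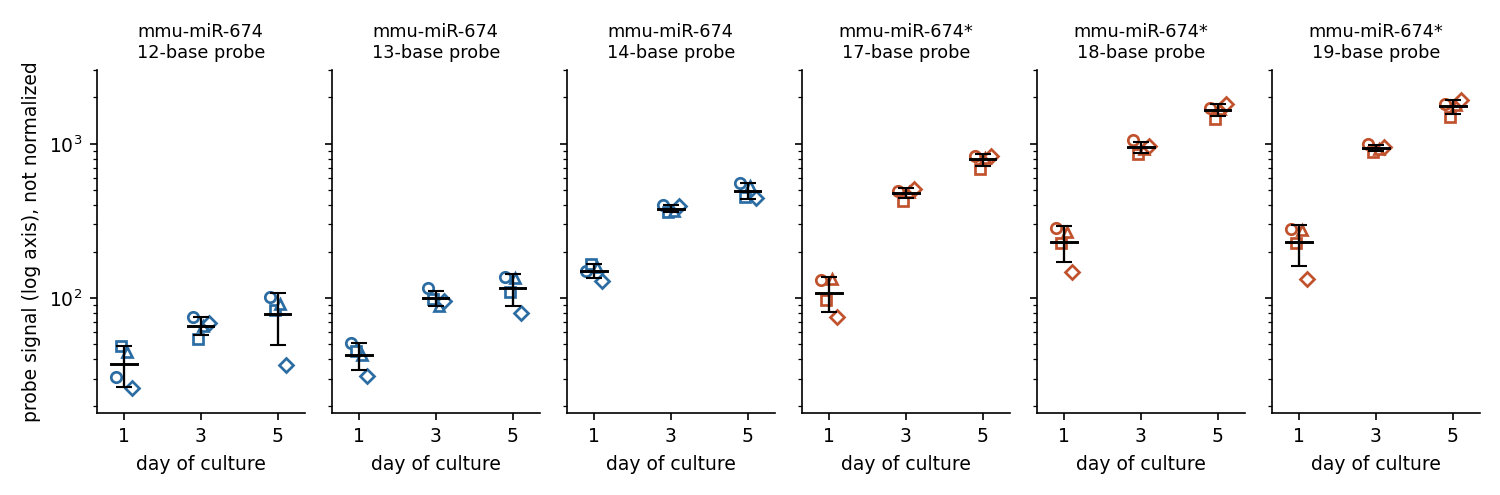
Unnormalized signal of each probe of both arms on a log axis, by day of culture, with 1 point per array (markers as for the replicates in the plot of both arms), a line at the mean, and bars of 1 SD (n = 4 per day). The 11-base probe is left out because its signals lay around 0. The mean of each of the 6 probes was lowest on day 1, and days 1 and 5 overlap for the 12-base probe of mmu-miR-674, with 26.0 to 48.9 and 36.7 to 102.

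Other precursors with both strands on the array gave a frame for the arm shift. The arms were both detected on all 8 arrays of days 1 and 5 for 17 precursors, miR-674 among them. Both arms were higher on day 5 for 9 of these, both were lower for 2, and the arms went in opposite directions for 6. In 4 precursors both arms rose by more than 1 on the log2 scale, and in 2, miR-674 and miR-199a, both rose by more than 2. mmu-miR-199a-5p and mmu-miR-199a-3p, strands of the stromal precursor, rose by 2.72 and 2.23.

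For 17.6% of the 17 precursors the difference of 3p minus 5p was higher on all arrays of day 5 than on all arrays of day 1. From day 1 to day 3 that share was 26.7% of 15 precursors, and from day 3 to day 5 it was 12.5% of 16, with miR-674 counted each time. Among the 17, the shift of miR-674 was the third highest, and the fourth in absolute size against a median of 0.49. Higher shifts toward the 3p arm were those of miR-1897 at 3.88 (SE 0.22) and miR-139 at 1.46 (SE 0.61). The 5p arm of miR-1897 fell by 3.55 and that of miR-139 fell by 1.63, so that miR-674 was the only one of the 3 whose arms both rose. The strongest shifts toward the 5p arm were those of miR-324 at -1.57 (SE 0.20), miR-338 at -1.10 (SE 0.29), and miR-18a at -0.77 (SE 0.48). In the deposited values the sign of the shift was another for 3 of the 17 precursors, those of miR-674, miR-532, and miR-30e.

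**Figure D5:**
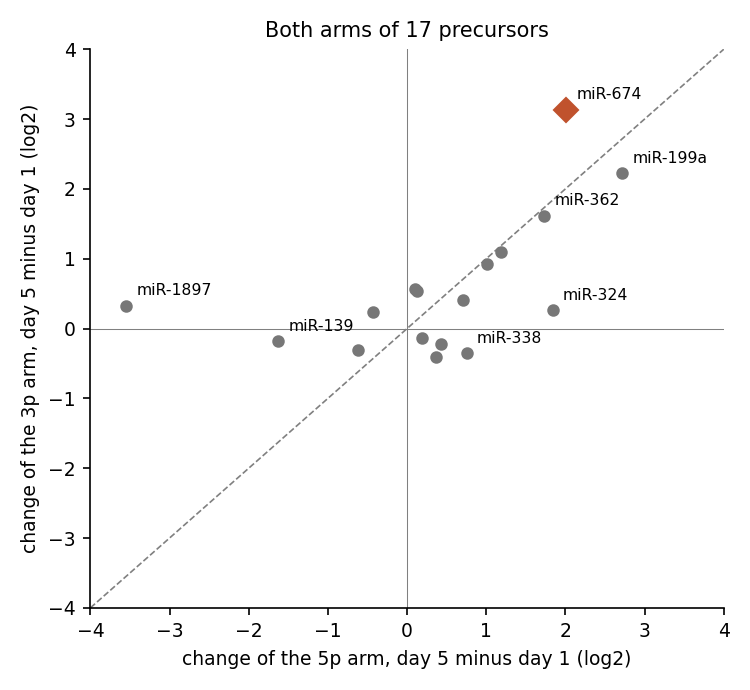
Change of the 3p arm against change of the 5p arm from day 1 to day 5, in log2 units after quantile normalization, for the 17 precursors with both arms detected on all arrays of these days. The dashed line marks equal change. miR-674 (diamond) lies at 2.01 and 3.13, with the highest 3p change of the 17 and above the line.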

How the data were processed

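Total RNA of 12 cultures was profiled on mouse miRNA arrays in 1 color. The authors deposited the output of Feature Extraction 9.5.3.1, whose intensity values are linear, background subtracted, and not normalized between arrays. They also deposited log2 values, quantile normalized in GeneSpring and empty where a miRNA was not detected. Quantile normalization was applied here to the total signals of 334 miRNAs (those with detection on 1 array or more), which were then raised to a floor of 1 (9.28% of values), and converted to log2. Means per day, changes, and standard errors came from lmFit and eBayes of limma 3.58.1 (R 4.3.3), and arm pairs were fitted on their difference within arrays. The fit was run on simulated log2 values with independent noise and known changes. The simulation held no slide effect and no normalization step, so it concerns the estimation alone. Precision is limited by 4 arrays per day. Probes and hairpins were matched to RefSeq, which held 558 of the 696 miRNAs, and the precursor was folded with ViennaRNA 2.7.2. Python 3.11.15 with numpy 2.4.6, pandas 2.3.3, and matplotlib 3.10.9 was used for tables and figures.

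The members, the marker lists, and the rule for named miRNAs were chosen with earlier results of these data known. The rule took both arms, the 5 nearest time courses of each, the 3 neighbors on each side in the order of day 5 minus day 1 changes, the 3 largest arm shifts in each direction, seed sharers, miRNA genes within 50 kb, and the marker lists. The rank among detected miRNAs in the deposited values was examined after the data had been seen. miR-144* and miR-486 of the erythroid list were not matched to an array entry. Alternatives covered scaling, filters on dim miRNAs, processed spot signals, normexp correction with an offset of 50, the deposited values, a floor of 0.1, single probes, the replicate number as a block, and each array left out in turn. Single probes without normalization were added after the data had been seen.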

Additional observations from a re-analysis of the deposited data

Results flagged for a closer look

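Among the 4 arrays of a day, replicate 4 of day 5 stood apart for miR-674 on 2 values. mmu-miR-674 was at 9.18 there, below the other day 5 arrays at 9.51 to 9.55, and the gap was 0.896 of the whole range of the 4 arrays. The arm difference was 2.99 on that array, above the other 3 at 2.32 to 2.38, with a gap of 0.905 of the range. Both gaps passed the 95% limit of Dixon's test for 4 arrays, which chance passes in about 1 of 20 groups. The arm difference contains the value of mmu-miR-674, so the gaps are not separate evidence. That array also had the fewest detected miRNAs of all 12, 186, and the 12-base probe of mmu-miR-674 was at 36.7 there, against 83.6 to 102 on the other arrays of the day. The 11-base probe of mmu-miR-674 was at -47.1 on that array, and this negative value is part of the total signal of 515.2 there. The signals of mmu-miR-674* on that array were the highest of the day. The part of array quality in these values was not tested.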

How the results depend on the processing

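Both arms stayed above day 1 on days 3 and 5, without overlap between the arrays, under every alternative of scaling, filter, background correction, floor, or array left out, and in the deposited values. The sizes varied. In the order day 3 minus day 1, day 5 minus day 1, and day 5 minus day 3, no normalization gave 2.10, 2.92, and 0.82 for mmu-miR-674* and 1.29, 1.60, and 0.32 for mmu-miR-674. With miRNAs detected on all 12 arrays alone, mmu-miR-674* changed by 2.61 and 2.79 and mmu-miR-674 by 1.66 and 1.498 from day 1. The normexp correction gave 2.60 and 2.67, and 1.51 and 1.33. The 75th percentile as the scale, over miRNAs with detection throughout, gave 2.92 and 1.59 from day 1 to day 5, and -0.42 for mmu-miR-674 from day 3 to day 5. For mmu-miR-674* from day 3 to day 5, the 75th percentile of all miRNAs gave 0.33 and the median gave 0.41. Processed spot signals gave 3.14 for mmu-miR-674* from day 1 to day 3.

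In the deposited values mmu-miR-674 rose by 4.08 and 3.90, and the arm shift was reversed, at -1.08 and -0.70. The cause of the low deposited values of dim miRNAs was not tested. From day 1 to day 3, single probes of 17, 18, and 19 bases gave 3.19, 3.14, and 3.13 for mmu-miR-674*, and 2.18, 2.07, and 2.09 without normalization. From day 1 to day 5 they gave 3.49, 3.37, and 3.48, and without normalization 2.91 and 2.88 for 17 and 18 bases. From day 3 to day 5 the 19-base probe gave 0.36, and without normalization the 3 probes gave 0.73, 0.81, and 0.89. The 12- and 13-base probes of mmu-miR-674 gave 3.01 and 3.02 to day 3, 3.17 and 3.09 to day 5, and 0.16 and 0.067 from day 3 to day 5. Without normalization the 12-, 13-, and 14-base probes gave 0.85, 1.24, and 1.34, then 1.01, 1.43, and 1.72, then 0.15, 0.19, and 0.38. The arm shift to day 3 was -0.036 with the 12-base probe and -0.041 with the 13-base probe, and to day 5 it was -0.025 and 0.060. Without normalization it was 1.24 to day 3 with the 12-base probe, 1.92 and 1.49 to day 5, and 0.67 and 0.63 between days 3 and 5. With the 17- or 19-base probe of mmu-miR-674* it was 1.49 or 1.47 to day 5. The 11-base probe alone gave no usable value, since its signals lay around 0.

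In the quantile normalized values the arm difference did not overlap, in either direction, for 5 of 15 precursors between days 1 and 3. The same held for 4 of 17 between days 1 and 5, and for 6 of 16 between days 3 and 5. Of these, 4, 3, and 2 were higher on all arrays of the later day, as in the shares given above. The 5 became 8 from day 1 to day 3 without normalization and under each scaling to a percentile or median. From day 1 to day 5, 4 became 7 with detection on all arrays of a day and 9 in the deposited values. From day 3 to day 5, 6 became 3 with normexp and 2 in the deposited values. Between days 3 and 5, 1 member instead of 0 was separate without normalization, under the percentile and median scalings, and with detection on all 12 arrays. Without normalization it was mmu-miR-674*, higher on day 5 by 0.82, where the median detected miRNA also rose by 0.57. Under the 75th percentile of miRNAs with detection throughout, mmu-miR-674* changed by 0.09 and mmu-miR-674 by -0.42. The share of all miRNAs that were separate was not counted under these settings.

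With each array left out in turn, mmu-miR-674* changed by 2.86 to 3.05, 3.04 to 3.21, and 0.09 to 0.20, and mmu-miR-674 by 2.02 to 2.23, 1.89 to 2.13, and -0.17 to -0.05. The arm shift was 0.68 to 0.95, 0.93 to 1.26, and 0.15 to 0.36, lowest without replicate 4 of day 5 for both comparisons with that day. The counts of separate precursors ran from 5 to 11 (11 without replicate 4 of day 3), 3 to 11 (11 without replicate 4 of day 5), and 6 to 9. For these counts the precursors were selected again by detection on the remaining arrays, so the number compared could differ from that with all arrays. A day with fewer arrays is also separated more easily. The count of separate members between days 3 and 5 ran from 0 to 1 (1 without day 3 replicate 4 or day 5 replicate 1).

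With a replicate block the changes were the same, 3.13 for mmu-miR-674* and 2.01 for mmu-miR-674 from day 1 to day 5, and the SEs were 0.13 and 0.14. The number matches the column on the slide, and whether same-numbered cultures share a preparation is not given in the sources used here. Deviations from the day means were correlated between arrays of different days. The 12 pairs of the same number had correlations of -0.44 to 0.70 (median 0.19). The 36 other pairs had -0.66 to 0.62 (median -0.02). Of the 12 arrays, 7 correlated best with their own number. The pairs share arrays, and whether this count exceeds chance was not tested. Arrays limit the precision to 4 per day. Signals near the background limit the 5p arm on day 1, and its 12- and 13-base probes also on day 5 replicate 4.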
